A study of Mus musculus with 8 samples.

Results

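C/EBPα binding in DC progenitors was compared with that in WT progenitors over 4 of the 8 libraries of the study, which are the 2 anti-C/EBPα libraries of each genotype, 1 per batch. All were made from mouse bone marrow cells sorted as Lin- KIThi-int FLT3+, by CUT&RUN, in which a nuclease tethered to an antibody releases the DNA around a bound protein. WT cells carry an unaltered form of a distal enhancer upstream of Zeb2. DC and DE are the labels' names for 2 altered forms of it, and the labels do not spell out what DC alters. Peak names inside the lists use other names for both (D123 and DE234), and the groups here follow the labels. The DE libraries enter alternative fits alone, and the WT IgG control library of each batch was not analysed here. Each library was made with 3 µL of antibody and 30 minutes of digestion on ice, followed by 14 cycles of PCR and sequencing as 150 bp read pairs. The labels do not say whether the batches are separate animals, so p-values measure the spread between these libraries.

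The authors' peak lists hold 82080 and 56940 peaks in WT of batches 1 and 2, and 169943 and 50221 in DC. Peaks that overlapped by 1 bp or more were joined into 237906 regions, of which 118474 (49.8%) were called in DC batch 1 alone and 25752 in all 4 libraries. Of the latter, 25745 were tested and 7 were not, because a fragment number could not be read back in every library. The measure is the summit pileup, the number of fragments stacked at the highest point of a peak. The scaled pileup divides it by a factor per library (1.00 and 0.963 in WT, 1.61 and 0.660 in DC) that sets the median difference between libraries to about 0 over regions called in all 4. Every direction below is therefore relative to the median region. Scaling by the background floor instead, the smallest local background in a library, moves every log2 difference alike by 0.85 towards DC, to a median of 0.83. Read totals were not given in the files used here, so depth is unknown.

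C/EBPα, a basic leucine zipper factor, binds DNA as a dimer and is required for granulocyte and monocyte progenitors to form. It works at distal enhancers as well as promoters, often next to the ETS factor PU.1. Zeb2 encodes a zinc finger repressor that acts in the choice between myeloid and dendritic cell fates. The study's title places ID2, an inhibitor of E proteins, and a Zeb2 enhancer in the specification of type 1 conventional dendritic cells (cDC1). These sorted cells are mixed progenitors, so a change in the share of a cell type and a change in binding per cell cannot be told apart.

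C/EBPα signal at the region taken as the altered enhancer was several-fold lower in DC. The strongest region within 10 kb of the enhancer's stated distance from Zeb2 lay at chromosome 2, 45279466 to 45279868 (mm10), 162 kb beyond the gene's 5′ end and between genes. Its scaled pileup was 337 and 330 in WT of batches 1 and 2 and 62.1 in DC batch 1, and no peak was called in DC batch 2. DC batch 1 was 5.43-fold lower than WT batch 1 (95% interval of counting error 4.33 to 6.86). Of the 37248 regions called in both batch 1 libraries, 21 (0.0564%) had a ratio as low or lower. The enhancer region was chosen for its high WT pileup, the denominator of this ratio, and the other regions were not. In batch 2 the local background was 41.2 in WT and an inferred 17.5 in DC, at which 32 fragments could go uncalled, so DC was at least 6.82-fold lower. Under floor scaling the batch 1 difference was 2.82-fold and the batch 2 limit 4.06-fold. These are 1 value per batch with no test between replicates. The DNA of this enhancer is what DC alters, and whether that changes how many fragments map there was not tested.

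The regions around it differed less. A region at 45276685, 2.8 kb from it towards Zeb2, had scaled pileups of 96.8 and 71.7 in WT and 58.4 and 40.9 in DC, so that the genotypes did not overlap. Its log2 difference was -0.77 ± 0.25 (SE) and did not pass (limma, Benjamini-Hochberg adjusted p = 0.0902). The region at 45261979, 17.5 kb towards Zeb2, had scaled pileups of 194 and 131 in WT and 145 and 115 in DC. These overlapped across batches, with DC below WT within each (log2 -0.30 ± 0.18, adjusted p = 0.423). Of the 10 regions within 20 kb, 7 had no call in at least 2 of the 4 libraries or a scaled pileup of 27.0 or less.

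**Figure D1:**
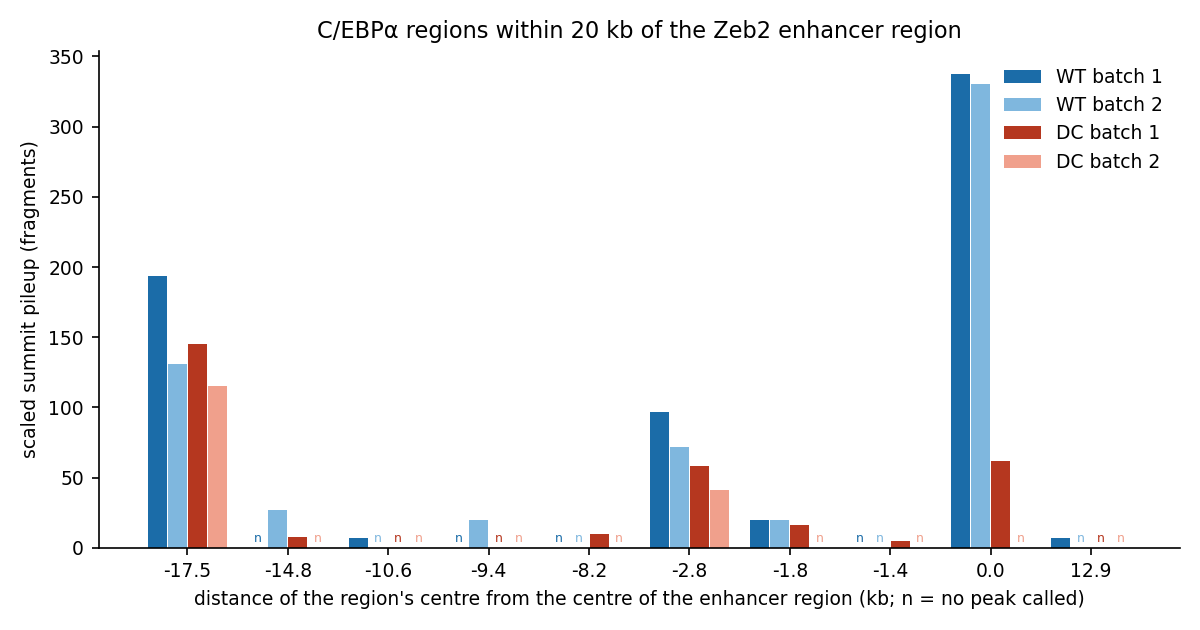
Scaled summit pileup (fragments) of the 10 C/EBPα regions within 20 kb of the enhancer region, placed by distance in kb, with 1 bar per library and n where no peak was called. At the enhancer region the WT bars stand at 337 and 330 and the DC batch 1 bar at 62.1, while the next 2 strongest regions keep bars in all 4 libraries.

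Across the genome, most regions called in both WT libraries were also called in DC, 95.6% in DC batch 1 and 82.9% in DC batch 2. Those called in neither DC library were mostly weak. Of 31499 regions called in both WT libraries, 1027 (3.26%) were called in neither DC library. By single batch, many more WT regions had no DC call. In batch 1 alone these were 43315 regions, where WT held 82080 peaks, and in batch 2 alone 23894, where WT held 56940 peaks. When WT regions were split into 5 groups of about equal size by scaled pileup, 99.7% of the strongest group were called in DC batch 2 and 51.4% of the weakest. In DC batch 1 these shares were 99.97% and 83.5%. Regions called in neither DC library made up 13.1% of the weakest group (830 regions) and 0.0159% of the strongest (1 region). In the opposite direction, 3974 (10.9%) of the 36483 regions called in both DC libraries had no WT call, from 32.0% in the weakest of 5 such groups to 0.192% in the strongest. The WT-only regions had a median pileup of 12 and 10 fragments, and the DC-only regions 18 and 9. The number of peaks called differed more than 3-fold between the DC libraries, and its part in these shares was not tested.

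**Figure D2:**
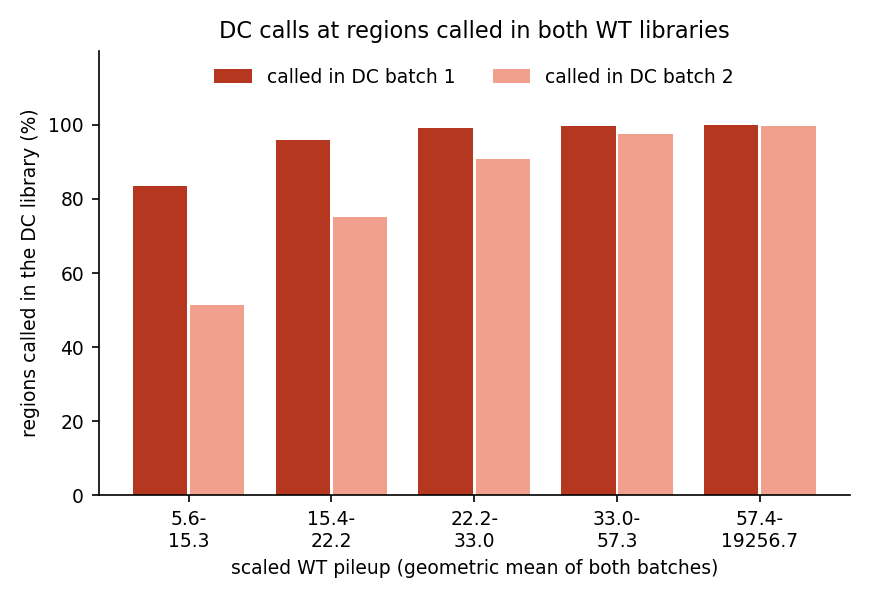
Share (%) of regions called in both WT libraries that were also called in each DC library, in 5 groups of WT scaled pileup (fragments, the range of each group under its bars). The share rises from 83.5% to 99.97% in DC batch 1 and from 51.4% to 99.7% in DC batch 2.

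The 6 strongest regions with a local background under 5 times the floor held in both genotypes. They lay in Cdkl3, Ptges, Rapgef2, Irf2 and Stk38l and 6.0 kb from Slc25a33. Ptges encodes prostaglandin E synthase, and the region inside it had scaled pileups of 411 and 342 in WT and 373 and 357 in DC. At the start of Irf2, an interferon regulatory factor gene, these were 283 and 415 against 342 and 409. The genotypes overlapped at both. None of the 6 passed, with log2 differences from -0.25 to 0.15.

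In the test over all 25745 regions (limma with batch as a term, adjusted p under 0.05), 671 (2.61%) were higher in DC and 242 (0.94%) lower. Floor scaling gave 14709 and 28. Without the batch term 0 passed in limma, where 1471 had an unadjusted p under 0.05 and the smallest adjusted p was 0.301. With the batch term 4476 had an unadjusted p under 0.05. All 913 that passed had the same direction in both batches, which the test favours. The higher regions had log2 differences of 0.52 to 2.91 with a median of 1.32, and the lower ones -0.51 to -2.50 with a median of -1.26. The test rests on 1 residual degree of freedom per region, with the spread shared across regions. All fits that left out 1 library, here and below, also held the DE libraries. They covered only regions that had a peak in every DE library as well. Leaving out 1 library at a time gave 132 to 477 higher and 37 to 105 lower regions.

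**Figure D3:**
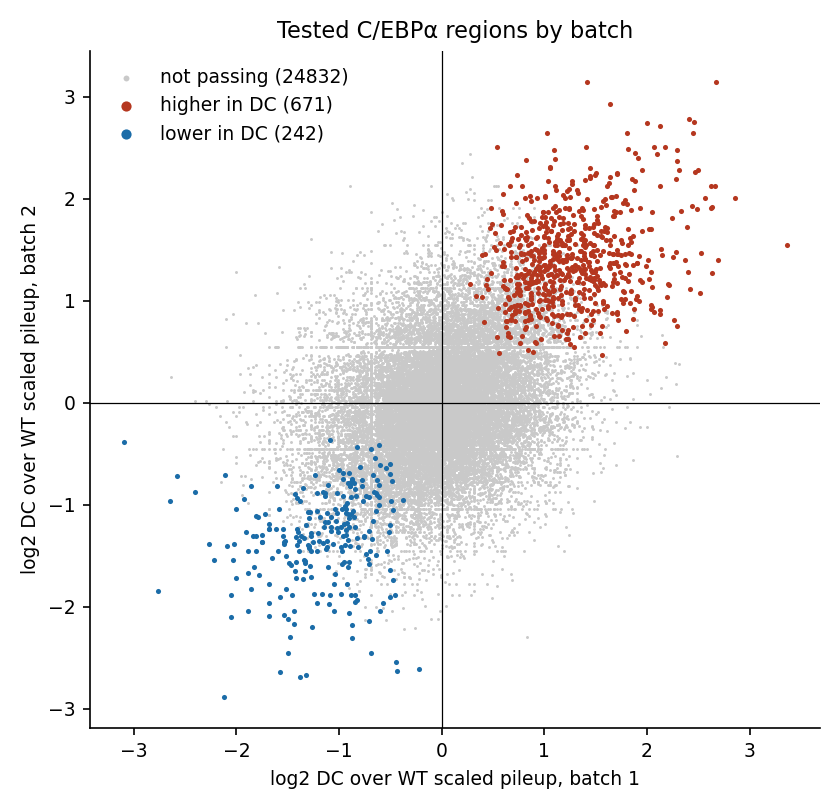
Log2 difference of DC over WT scaled pileup in batch 1 (horizontal) and batch 2 (vertical) for the 25745 tested regions, 1 point each. The 671 regions higher in DC all lie above 0 on both axes, the 242 lower ones below 0 on both, and the 24832 that did not pass fill the middle.

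Changed regions sat away from gene ends. Of all tested regions, 25.0% lay within 1 kb of the end of a protein-coding gene, against 9.54% of the higher and 15.7% of the lower ones. The share that was higher was 0.995% near gene ends, 3.30% inside genes and 2.97% between genes. For lower regions these shares were 0.591%, 0.848% and 1.26%. The higher regions went from a median scaled pileup of 31.9 and 27.0 in WT to 76.4 and 72.7 in DC. The lower ones went from 64.8 and 59.2 to 29.8 and 21.2. By chromosome, leaving out Y with its 7 tested regions, the share that was higher ran from 0.640% on X (3 of 469) to 3.68% on chromosome 12.

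The 15 higher regions of smallest adjusted p lay inside a gene or 10.9 to 320 kb from the nearest one. Among all tested regions, 38.5% were inside a gene and 36.5% between genes, each more than 1 kb from a gene end. The first, at chr11:119191590-119192389, was inside Tbc1d16, which encodes a Rab GTPase-activating protein. Its scaled pileup was 179 and 133 in WT and 511 and 415 in DC, a log2 difference of 1.58 ± 0.14 (adjusted p = 7.19e-07). A region at chr12:73755660-73756171 inside Prkch, a protein kinase C gene, stood at 26.9 and 54.0 in WT and 166 and 203 in DC (2.27 ± 0.24, adjusted p = 5.95e-06). Both DC libraries were well above both WT libraries at each. The region of largest difference, 72.3 kb from the prolactin family gene Prl2c3 at chr13:12717918-12718501, had 15.0 and 12.5 in WT and 95.6 and 111 in DC (2.91 ± 0.31, adjusted p = 6.28e-06). It also had the largest difference of all 671.

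The nearest genes of the other named higher regions had varied roles. A region 320 kb from Diras2, a Ras family GTPase gene, went from 25.9 and 29.1 to 164.6 and 127 (2.40 ± 0.26). One inside Pitpnc1, a phosphatidylinositol transfer protein gene, went from 56.9 and 90.4 to 204 and 248 (1.65 ± 0.19). A region inside Acoxl, 14.0 kb from the start of Bcl2l11, which encodes the death-promoting protein BIM, went from 56.9 and 37.4 to 184 and 136 (1.78 ± 0.22). The genotypes were separate at all of these. Regions in Reep6, Ank3, Gm46963, Sytl3 and Prkar1b, and others 10.9 to 161 kb from Stambpl1, Cldn16, Dlx2 and Far2, were higher by log2 1.42 to 2.61. Each of the 15 passed in all fits that left out 1 library, with adjusted p of at most 0.013.

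The 15 lower regions of smallest adjusted p were of 2 kinds. The first kind, 7 regions, had a local background of 50 or more in every library and stood only 1.501 to 3.40 times over it. The nearest genes were Fgf14, Tcte2, Mrgprd, B230307C23Rik, Cr2 and Csf2ra on 6 chromosomes, with 1 more region elsewhere. These genes were 16.9 kb (Mrgprd) to 195 kb (Cr2) away, with Csf2ra at 103 kb. With 1 library left out, each of the 7 regions either lost its call or was missing from such a fit. Their log2 differences were -1.17 to -0.82 and became -0.32 to 0.03 under floor scaling, which moves every region by the same amount. A local background over 5 times the floor in all 4 libraries was found at 13 of the 242 lower regions (5.37%), 3 of the 671 higher ones (0.447%) and 2.31% of all.

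The other 8 had a local background under 50 in every library. A region at chr14:33247601-33248040 in Arhgap22, which encodes a GTPase-activating protein for Rac, had scaled pileups of 91.8 and 101 in WT and 21.1 and 13.6 in DC (log2 -2.50 ± 0.31, adjusted p = 3.60e-05). At the start of Myo18a (chr11:77801311-77801748), an unconventional myosin gene, the values were 111 and 92.4 against 39.1 and 21.2 (-1.81 ± 0.27, adjusted p = 2.79e-04). A region 4.21 kb from the chemokine gene Ccl5, at chr11:83534723-83535193, had 51.9 and 85.2 against 17.4 and 13.6 (-2.11 ± 0.34, adjusted p = 6.15e-04). All 3 kept their calls without any 1 library, with adjusted p of at most 8.05e-04, 0.017 and 0.048. A region 44.3 kb from Ier3, an immediate early gene, went from 323 and 224 to 178 and 108 (-0.96 ± 0.16), on a background of 4.53 to 16.4 that was over 5 times the floor in all 4 libraries. Regions at Hivep3, Lpp, Slamf9, a SLAM family receptor gene, and Gtf3c5, a subunit of transcription factor IIIC, were lower by log2 -1.88 to -0.97. Under floor scaling the differences at Ier3, Hivep3 and Gtf3c5 were -0.11, -0.12 and -0.16. These 5 lost their calls when 1 library was left out, with adjusted p up to 0.34.

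Regions called in WT alone added loci that the test could not reach. Those named were the strongest in WT among regions with no DC call, so large differences follow from the choice. A region at 33243261 on chromosome 14, also inside Arhgap22 and close to the one above, had scaled pileups of 53.9 and 40.5 in WT and no call in DC. DC was at least 21.7-fold lower in batch 1 and 5.35-fold in batch 2, given the largest pileup that could go uncalled on an inferred background. These limits, here and below, leave out counting error. Siglec1, a sialic acid receptor of macrophages, had a region 4.14 kb away with 66.8 and 41.5 in WT, at least 17.9-fold and 5.49-fold lower in DC. The start of Tgfb1, the gene of the cytokine TGF-β1, had 35.9 and 50.9 (at least 4.45-fold and 3.06-fold), and a region in the kinase gene Map2k3 had 27.9 and 36.3 (at least 7.50-fold and 8.002-fold). Regions at Tmem125, Gm15319, Duxf3 and Gm52481 stood on backgrounds of 10.7 to 71.1 fragments and gave limits of 1.37-fold to 2.80-fold.

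Of the 8 strongest DC-only regions, 4 lay 78.3 to 318 kb from a gene and the others inside one or within 5.09 kb. They were likewise picked for high DC pileup among regions with no WT call. One lay 139 kb from Pcdh15, a protocadherin gene of hair cells, with 109 and 62.1 in DC and at least 21.8-fold and 14.9-fold less in WT. Another, 159 kb from Stpg2, had 95.6 and 90.8 (at least 19.2-fold and 5.15-fold). A region inside Thsd4 had 52.8 and 59.1 (at least 10.6-fold and 14.2-fold), and 1 inside Rin1, a Ras effector gene, had 61.5 and 59.1 (at least 3.85-fold and 7.11-fold). Both regions beside Sfi1 had 125 and 99.9, and 68.9 and 59.1. The region with the highest DC pileup, 318 kb from Alkbh8, had a local background of 1067 in batch 1, at which no limit above 1 could be set.

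Genes of neutrophil granules and maturation held the most regions higher in DC among the 21 gene lists. The lists were chosen with earlier results of these data known, so their shares are a description and not a test. Of 57 tested regions within 10 kb of these genes, 8 (14.0%) were higher and 0 lower in limma, against 2.61% and 0.94% of all regions. At an unadjusted p under 0.05 there were 12 and 3. The median log2 difference was 0.16, with 37 above 0 and 20 below, against -0.02 over all regions. The count was 2 without DC replicate 2, 3 without WT replicate 2, 5 without DC replicate 1 and 7 without WT replicate 1. It was 3 when the authors' fold over background replaced the pileup. Of the regions at these genes, 0 of 63 were called in WT alone and 6 of 78 in DC alone, where the shares over all regions were 3.26% and 10.9%. The 6 were at Cxcr2, Ctsg, Mmp9, Ltf and Padi4, the last with 2 regions.

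The calprotectin genes S100a8 and S100a9, whose products form the main calcium-binding protein of neutrophil cytosol, are neighbours and carried 4 of the 8. At the start of S100a9 (chr3:90695585-90696082), the scaled pileup was 19.0 and 66.5 in WT and 122 and 176 in DC (log2 2.05 ± 0.27, adjusted p = 6.61e-05). The region 9.70 kb from the gene (chr3:90682032-90682927) had 30.9 and 42.6 against 137 and 117 (1.80 ± 0.25, adjusted p = 1.39e-04), and the one at 5.31 kb had 97.8 and 65.4 against 176 and 191 (1.20 ± 0.21, adjusted p = 1.09e-03). WT and DC libraries did not overlap at any of these. A region 9.11 kb from S100a8 and 1.36 kb from S100a7a had 30.9 and 24.9 against 60.9 and 87.8 (1.40 ± 0.30, adjusted p = 7.39e-03). The start of S100a8 itself had 61.9 and 101 in WT and 66.5 and 117 in DC and did not pass (0.16 ± 0.22, adjusted p = 0.782). All 6 tested regions of the pair had a difference above 0, against 12430 of all 25745. This locus was chosen after its values were seen.

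The other 4 lay at separate genes of the neutrophil lineage. Cebpe encodes C/EBPε, the family member of late granulocyte maturation, and its region at 3.09 kb (chr14:54705592-54707275) had 83.8 and 105 in WT and 142 and 203 in DC (0.86 ± 0.19, adjusted p = 0.0109). The start of Ms4a3, a gene of granulocyte and monocyte progenitors, had 39.9 and 39.5 against 87.6 and 80.2 (1.08 ± 0.26, adjusted p = 0.0181). Cxcr2 encodes a neutrophil chemokine receptor and Csf3r the receptor of granulocyte colony-stimulating factor. Their regions had 43.9 and 39.5 against 65.8 and 99.9 (0.96 ± 0.27, adjusted p = 0.0450) and 158 and 83.1 against 199 and 171 (0.69 ± 0.19, adjusted p = 0.0469). DC was above WT in both batches at all 4. Of the 8 regions, only the pair at the start of S100a9 and at 9.70 kb passed whichever library was left out. The highest adjusted p without 1 library was 0.31 to 0.96 for the other 6.

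The strongest regions of granule genes were not among those that passed. Mmp8, neutrophil collagenase, had a region with 381 and 151 in WT and 275 and 136 in DC (log2 -0.31 ± 0.16, adjusted p = 0.323). The region at the serine protease gene Ctsg had 220 and 132 against 193 and 112 (-0.21 ± 0.18), and that within 10 kb of the elastase gene Elane, nearest to the proteinase gene Prtn3, 167 and 157 against 158 and 92.4 (-0.42 ± 0.20, adjusted p = 0.267). The libraries of the genotypes overlapped across batches at all 3, with DC below WT within each batch.

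**Figure D4:**
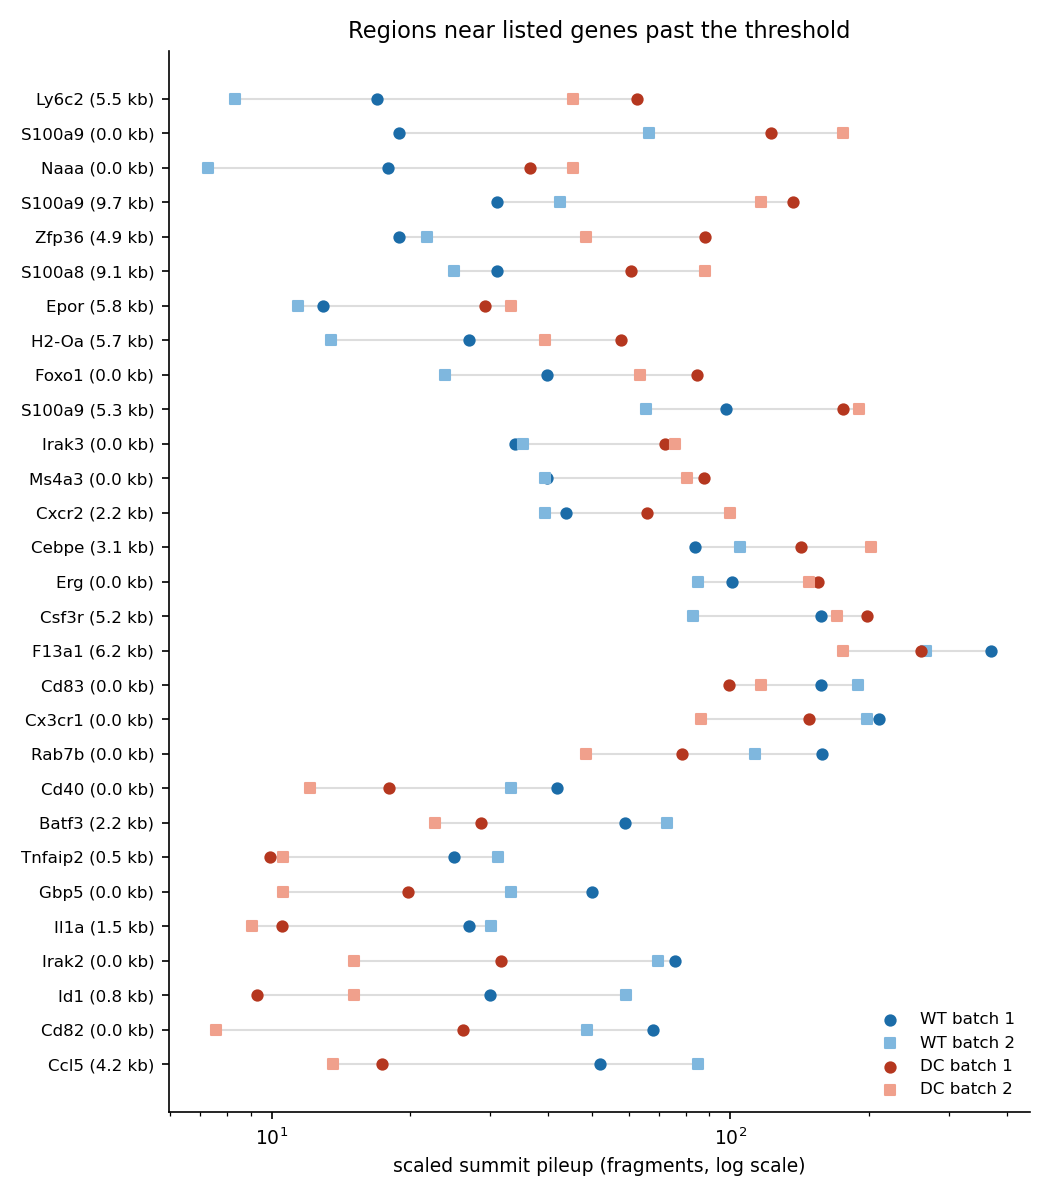
Scaled summit pileup (fragments, log axis) in each of the 4 libraries for the regions past the threshold within 10 kb of listed genes, ordered by log2 difference, with the distance to the gene in kb. Ly6c2 and S100a9 lead those higher in DC, and Ccl5, Cd82 and Id1 are at the end of those lower in DC.

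Inflammatory genes held the most lower regions among the lists. This list, too, was chosen with earlier results of these data known. Of 111 tested regions within 10 kb of genes of the NF-κB pathway and inflammatory response, 6 (5.41%) were lower and 1 was higher, against 0.94% and 2.61% of all regions. A difference below 0 was found at 82 and above 0 at 29, against 13315 and 12430 of all 25745. The median log2 difference was -0.25, and 0.59 under floor scaling. The count of lower regions was 0 without DC replicate 2, 2 without DC replicate 1, 2 without WT replicate 2 and 3 without WT replicate 1. It was 2 with the authors' fold values and 2 at a −log10 q of at least 2. At an unadjusted p under 0.05, 28 were lower and 3 higher, against 2033 and 2443 of all regions.

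The 6 lay at receptors, adaptors and a cytokine. In Cd82 (chr2:93456212-93456685), a tetraspanin gene, the scaled pileup was 67.8 and 48.8 in WT and 26.1 and 7.57 in DC (log2 -2.03 ± 0.37, adjusted p = 1.66e-03). In Irak2 (chr6:113649388-113649782), a kinase of interleukin-1 receptor signalling, it was 75.8 and 69.6 against 31.7 and 15.1 (-1.73 ± 0.31, adjusted p = 1.89e-03). A region 1.46 kb from the cytokine gene Il1a had 26.9 and 30.1 against 10.6 and 9.08 (-1.54 ± 0.40, adjusted p = 0.0293). The genotypes were separate at these and at the other 3. Tnfaip2, a gene induced by TNF, had 24.9 and 31.2 against 9.94 and 10.6 (-1.44 ± 0.40), and the costimulatory receptor gene Cd40 had 41.9 and 33.2 against 18.01 and 12.1 (-1.34 ± 0.36). Cd83, a marker of mature dendritic cells, had 158 and 190 against 99.4 and 117 (-0.69 ± 0.19, adjusted p = 0.0374), which floor scaling turned to 0.16. The 1 higher region was in Irak3, which encodes a negative regulator of the same receptors, at 33.9 and 35.3 in WT and 72.0 and 75.7 in DC (1.09 ± 0.27, adjusted p = 0.0231). Each of the 7 lost its call without at least 1 library.

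The strongest sites of this list did not pass. Il1b encodes interleukin-1β, and its region 1.93 kb from the gene had 449 and 267 in WT and 450 and 194 in DC (-0.23 ± 0.14, adjusted p = 0.432). In Tnfaip3, the gene of the NF-κB inhibitor A20, the values were 293 and 290 against 227 and 192 (-0.48 ± 0.15, adjusted p = 0.0758), with both DC libraries lower. Across the Il1a and Il1b locus, chosen after its values were seen, 12 of 13 tested regions had a difference below 0 and 1 was lower past the threshold. Over all 25745 regions, 13315 had a difference below 0 and 0.94% were lower.

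Of 31 tested regions at chemokine genes, 26 had a difference below 0 and 5 above (13315 and 12430 of all 25745), with a median of -0.35 that was -0.25 in batch 1 and -0.46 in batch 2. Under floor scaling that median was 0.49. The region at Ccl5 was the 1 of 31 that passed, against 0.94% of all regions that were lower. The most strongly bound, 7.06 kb from Ccl3, which encodes a macrophage inflammatory protein, had 320 and 245 in WT and 294 and 183 in DC (-0.27 ± 0.15, adjusted p = 0.358). In a wider view of the chromosome 11 chemokine genes, chosen after values were seen, 2 of 54 tested regions were lower and 1 higher. The higher one, 3.13 kb from Gas2l2, had 34.9 and 30.1 in WT and 85.7 and 60.6 in DC (1.15 ± 0.28, adjusted p = 0.0190, and up to 0.55 with 1 library left out). The second lower one lay 12.5 kb from Ccl2, a monocyte chemoattractant gene, with 50.9 and 33.2 against 18.01 and 6.06 (-1.98 ± 0.39, adjusted p = 3.68e-03, and up to 0.22 with 1 library left out). At Ccl2 itself a region with pileups of 20 and 30 was called in WT alone.

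Regions outside the lists, at Socs3 and Cebpb, were also chosen after values were seen. Socs3 encodes a feedback inhibitor of the JAK-STAT pathway. Its region at 5.68 kb had 70.8 and 83.1 in WT and 32.9 and 27.3 in DC (-1.36 ± 0.28, adjusted p = 6.08e-03). Another at 18.9 kb had 61.9 and 63.4 against 31.7 and 21.2 (-1.27 ± 0.31, adjusted p = 0.0179). Downstream of Cebpb, which encodes the related factor C/EBPβ, a region at 84.7 kb had 112 and 154 against 77.0 and 56.0 (-0.996 ± 0.23, adjusted p = 0.0154). A weaker one at 56.9 kb had 16.0 and 32.2 against 4.97 and 7.57 (-1.89 ± 0.42, adjusted p = 0.0113). The genotypes did not overlap at any of the 4. These were 2 of 12 tested regions at Socs3 and 2 of 20 at Cebpb, against 0.94% of all regions that were lower. Those at Socs3 and the one at 84.7 kb lost their calls with 1 library left out (adjusted p up to 0.45 and 0.55).

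Of 73 regions at monocyte and macrophage genes, 1 was higher and 2 were lower, against 2.61% and 0.94% of all regions. Ly6c2, the monocyte surface antigen gene, had a region at 5.52 kb (chr15:75117582-75117785) with 17.0 and 8.31 in WT and 62.7 and 45.4 in DC (2.17 ± 0.36, adjusted p = 7.34e-04), which passed whichever library was left out. In Cx3cr1, the fractalkine receptor gene, a region fell from 210 and 198 to 148 and 86.3 (-0.85 ± 0.19, adjusted p = 0.0109). At F13a1, a coagulation factor gene expressed by monocytes, the region had 369 and 267 against 261 and 176 (-0.55 ± 0.15, adjusted p = 0.0321), and 0.29 under floor scaling. Both Cx3cr1 and F13a1 lost their calls with 1 library left out. The strong region inside the kinase gene Fes stood at 405 and 421 against 466 and 407, with overlapping genotypes (0.08 ± 0.12).

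Among 40 regions at cDC1 genes, 2 were lower and 1 higher, against 0.94% and 2.61% of all regions. A region at chr1:191111111-191111675, 2.17 kb from Batf3, a factor that cDC1 require, had 58.9 and 72.7 in WT and 28.6 and 22.7 in DC (-1.36 ± 0.30, adjusted p = 0.0108). In Rab7b, a Rab GTPase gene, the values were 159 and 113 against 78.3 and 48.5 (-1.12 ± 0.22, adjusted p = 3.33e-03). In Naaa, an amidase gene expressed by cDC1, the order was the opposite, with 17.96 and 7.27 against 36.6 and 45.4 (1.84 ± 0.41, adjusted p = 9.88e-03). The 3 regions lost their calls with 1 library left out. The start of Nfil3, a repressor needed for cDC1, had 170 and 147 against 127 and 95.4 and did not pass (-0.52 ± 0.19, adjusted p = 0.137). Of the 23 regions at cDC2 genes and the 26 at plasmacytoid dendritic cell (pDC) genes, 0 passed in limma. At an unadjusted p under 0.05 there were 4 and 4, against 4476 of all 25745.

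Among Zeb2, the Id genes and the E proteins, 1 of 23 regions passed and was lower, against 0.94% of all regions that were lower. It lay 0.84 kb from Id1 (chr2:152735056-152735411), which encodes an inhibitor of E proteins, and had 29.9 and 59.2 in WT and 9.32 and 15.1 in DC (-1.83 ± 0.37, adjusted p = 4.65e-03, and up to 0.11 with 1 library left out). A stronger region 3.96 kb from Id1 had 356 and 295 against 282 and 288 (-0.19 ± 0.14) and did not pass. At the E protein gene Tcf3, 171 and 138 stood against 218 and 173 (0.34 ± 0.17, adjusted p = 0.305). A weak region at the 5′ end of Zeb2 was called in WT alone, with pileups of 11 and 6.

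Of 46 regions at C/EBP family genes and their regulators, the 1 at Cebpe above was the only one that passed. It made up 2.17% of them, against 2.61% of all regions that were higher. Strong regions in Trib1, which directs C/EBPα to degradation, had 297 and 298 in WT and 334 and 345 in DC (0.19 ± 0.13). In Spi1, the PU.1 gene, the values were 305 and 270 against 352 and 251 (0.05 ± 0.14), overlapping between the genotypes.

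Elsewhere single regions passed. In Erg, an ETS factor gene of stem cells, 101 and 85.2 stood against 155 and 148 (0.71 ± 0.20, adjusted p = 0.0418). It was the 1 of 106 regions at stem and progenitor genes that passed, against 2.61% of all regions that were higher. Foxo1, a forkhead factor gene of early B cells, had 39.9 and 23.9 against 84.5 and 63.6 (1.25 ± 0.28, adjusted p = 0.0115). A second region 149 kb from it, chosen after values were seen, had 39.9 and 39.5 against 134 and 108 (1.60 ± 0.24, adjusted p = 3.15e-04). Within 10 kb of Zfp36, whose product speeds decay of cytokine messenger RNA, a region 0.579 kb from Med29 had 19.0 and 21.8 against 88.2 and 48.5 (1.68 ± 0.33, adjusted p = 3.46e-03). A stronger region beside it, inside Med29, had 587 and 342 against 500 and 257 and did not pass (-0.32 ± 0.12, adjusted p = 0.170). Regions within 10 kb of H2-Oa and Epor, genes of an MHC class II chain and the erythropoietin receptor, were higher by 1.32 ± 0.34 and 1.36 ± 0.38. The B lymphoid, AP-1 and immediate early, MHC class II, and erythroid and megakaryocyte lists each had 1 higher region. They held 15, 80, 24 and 19 tested regions, against 2.61% of all regions that were higher. The regions at Erg, H2-Oa and Epor, the first at Foxo1 and the one near Zfp36 lost their calls with 1 library left out.

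Further lists held genes of other blood lineages and of other tissues. Of regions at T and NK, mast, basophil and eosinophil, liver and fat, and neural and muscle genes, 0 of 7, 14, 18 and 8 passed in limma, with 2, 5, 2 and 1 at an unadjusted p under 0.05, against 4476 of all 25745. For lysosome and cathepsin genes and housekeeping genes, 0 of 53 and 44 passed, with 7 and 8 at an unadjusted p under 0.05. Binding at a marker gene is not its expression. The gate genes Kit and Flt3 were bound in all 4 libraries, Kit at 1 region (log2 0.52) and Flt3 at 7 (-0.63 to 0.32). So was Cd34, a progenitor marker outside the stated gate, at 1 region (-0.10). None of these passed.

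**Figure D5:**
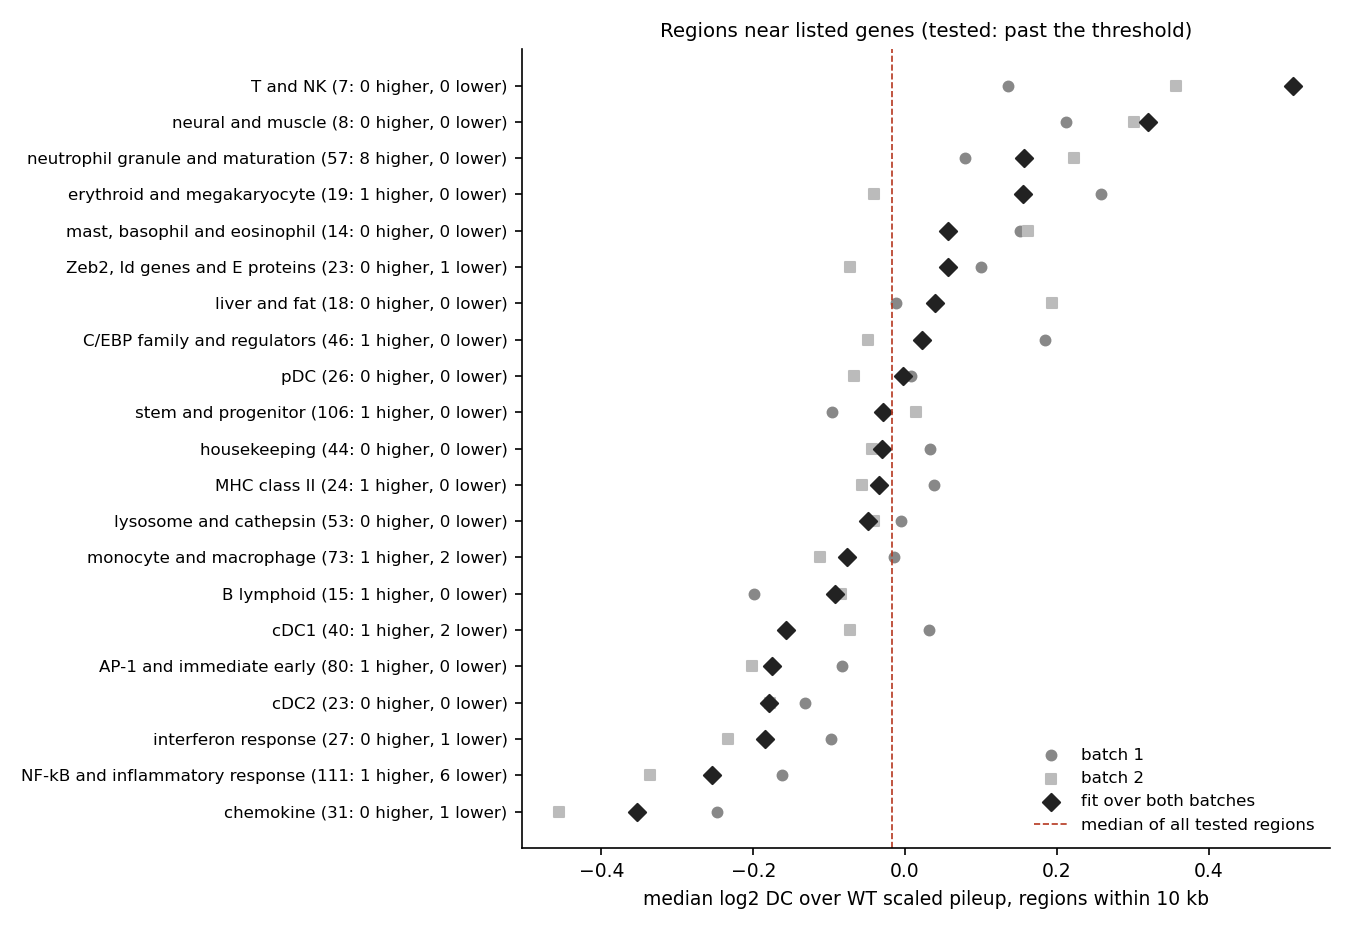
Median log2 difference of DC over WT scaled pileup of tested regions within 10 kb of the genes of each list, in batch 1, in batch 2 and in the fit over both, with the number tested and past the threshold. The NF-κB and chemokine lists have medians of -0.25 and -0.35, and the neutrophil list, with 8 higher regions, 0.16, while the median of all regions is -0.02.

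Some genes had several changed regions of 1 direction. In 8 places, 17 genes had 3 or more higher regions and no lower one within 50 kb, and at 1 gene, Gas7, 3 were lower. Over all tested regions, 671 were higher and 242 lower. The 17 genes had 4 to 16 tested regions each, and neighbouring genes shared the same ones. How many genes would hold such groups at these rates was not tested. Gas7 encodes a growth arrest protein of the cytoskeleton, and its strongest region had 230 and 160 in WT and 109 and 124 in DC (-0.72 ± 0.19, adjusted p = 0.0339), which became 0.12 under floor scaling. The next had 134 and 118 against 63.3 and 54.5 (-1.10 ± 0.22, adjusted p = 4.63e-03). Around Gm46963 and Mxd1, which encodes a MAX partner that opposes MYC, 4 regions were higher by 0.92 to 2.61. The strongest of the 4 had 117 and 95.5 against 236 and 170 (0.92 ± 0.18, adjusted p = 3.85e-03). At Igf1r, the gene of the insulin-like growth factor receptor, 3 regions at 15.1 to 45.6 kb were higher by 0.97 to 1.52. Within or beside Itpr2, an inositol trisphosphate receptor gene, 3 were higher by 0.88 to 1.12. At Ugt1a10, whose family shares exons so that the nearest gene is uncertain, 3 were higher by 1.38 to 1.84. With 1 library left out, all these regions at Gas7, Igf1r, Itpr2 and Ugt1a10 lost their calls in at least 1 fit. Of the 4 around Gm46963 and Mxd1, only the one higher by 2.61 kept its call.

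Few changes fell on promoters. Of the tested regions, 4345 (16.9%) overlapped the window from 250 bases before to 50 after a start site in the RefSeq promoter table (GRCm38.p6), against 18 of the higher (2.68%) and 22 of the lower (9.09%). Besides S100a9 and Ms4a3, higher promoter regions included Optn, an autophagy receptor gene (31.9 and 28.0 in WT, 86.9 and 83.3 in DC, log2 1.51 ± 0.27), and Pram1, an adaptor gene of granulocytes (28.9 and 32.2 against 92.5 and 77.2, 1.47 ± 0.28). Fut7 encodes the fucosyltransferase that makes selectin ligands on leukocytes, and its promoter had 163 and 82.0 against 214 and 168 (0.72 ± 0.19, adjusted p = 0.0337). Lower ones included Ralgds, a Ral exchange factor gene, with 128 and 91.4 against 63.3 and 37.9 (-1.14 ± 0.24, adjusted p = 6.05e-03). The promoter of Ptx3, the gene of the soluble pattern recognition protein pentraxin 3, had 36.9 and 20.8 against 10.6 and 7.57 (-1.63 ± 0.40, adjusted p = 0.0217). That of Gbp5, an interferon-induced GTPase gene, had 49.9 and 33.2 against 19.9 and 10.6 (-1.49 ± 0.36, adjusted p = 0.0190). WT and DC were separate at all 6. With 1 library left out, the adjusted p rose to 0.098 at Optn, 0.34 at Pram1, 0.72 at Fut7, 0.27 at Ralgds and 0.25 at Gbp5, so none of these calls held in every such fit, and Ptx3 was not tested in each of them.

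A C/EBP dimer site has the form TTGCNNAA, which was searched on both strands. It stood in 2162 of 21263 promoter windows of protein-coding genes (10.2%), in 599 of 5320 promoters overlapped by a tested region (11.3%), in 8 of 23 overlapped by a higher region (34.8%) and in 3 of 23 overlapped by a lower one (13.04%). The palindrome TTGCGCAA, a special case of it, stood in 47 of the 21263 (0.221%). The 250 bases before the start of 5 genes are printed to show where such a match lies against the peak summits, for 2 promoters with more and 3 with less binding in DC. Capitals mark a match, written as it reads on the gene's strand. S100a9 lies on the minus strand at chr3:90695722-90695971 and the others on the plus strand, Fut7 at chr2:25422992-25423241, Ptx3 at chr3:66219637-66219886, Ralgds at chr2:28533214-28533463 and Gbp5 at chr3:142496684-142496933.
S100a9: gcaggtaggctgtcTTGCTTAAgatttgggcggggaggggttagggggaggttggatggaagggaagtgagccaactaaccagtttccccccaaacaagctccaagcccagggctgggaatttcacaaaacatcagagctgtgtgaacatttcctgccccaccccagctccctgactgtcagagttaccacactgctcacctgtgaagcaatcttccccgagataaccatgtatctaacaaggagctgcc
Fut7: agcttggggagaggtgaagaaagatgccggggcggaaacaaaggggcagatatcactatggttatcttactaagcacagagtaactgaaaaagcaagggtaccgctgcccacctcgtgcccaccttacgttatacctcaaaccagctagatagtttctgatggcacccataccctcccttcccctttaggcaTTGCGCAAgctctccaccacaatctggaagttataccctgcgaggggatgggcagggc
Ptx3: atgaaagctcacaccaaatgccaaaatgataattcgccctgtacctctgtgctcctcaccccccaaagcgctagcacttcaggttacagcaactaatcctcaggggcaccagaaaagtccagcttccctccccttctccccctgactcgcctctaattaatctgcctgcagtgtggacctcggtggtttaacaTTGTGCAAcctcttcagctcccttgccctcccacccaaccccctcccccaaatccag
Ralgds: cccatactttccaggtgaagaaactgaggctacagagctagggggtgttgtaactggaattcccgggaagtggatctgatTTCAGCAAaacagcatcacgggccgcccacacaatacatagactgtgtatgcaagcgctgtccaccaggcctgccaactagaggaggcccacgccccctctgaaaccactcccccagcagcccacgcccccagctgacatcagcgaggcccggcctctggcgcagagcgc
Gbp5: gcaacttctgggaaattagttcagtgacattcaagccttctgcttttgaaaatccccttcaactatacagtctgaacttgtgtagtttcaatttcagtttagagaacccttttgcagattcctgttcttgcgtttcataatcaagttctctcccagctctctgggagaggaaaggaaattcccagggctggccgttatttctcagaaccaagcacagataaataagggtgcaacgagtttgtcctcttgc

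Positions are counted from the start site, negative before it. In Fut7 the match began at -58 and the summits lay at -72 and -73 in WT and -111 and -138 in DC. In Ralgds it began at -170, with summits at -175, -167, -179 and -286 in WT batches 1 and 2 and DC batches 1 and 2. In Ptx3 it began at -57, with summits at -61, -28, -77 and -8. In these 3 promoters the WT batch 1 summit was within 15 bases of the match. In S100a9 the match began at -236 and the summits lay nearer the start, at -35 and -102 in WT and -141 in both DC libraries. Gbp5 held no match in the printed window, and its 4 summits lay between -135 and -128. A match of letters is not evidence of binding at that position.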

How the data were processed

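C/EBPα CUT&RUN peaks of 2 WT and 2 DC libraries of mouse progenitors were analysed. Tools named for the deposited lists (mm10) are MACS2 2.2.9.1, Bowtie2, HOMER, SAMtools and Trimmomatic, per the submitters' processing notes. Each deposited peak carries a score, a fold over local background (ratio), −log10 p and −log10 q. The lowest −log10 q values correspond to a q limit of about 0.1, and the score was 10 times −log10 q. Whole-number summit pileup and background were recovered from fold and −log10 p, for at least 99.986% of peaks. In DC replicate 2, 8.13% had more than 1 solution. At summits shared within a batch above the floor, 83.5% and 84.8% of WT to DC background ratios took 1 of 2 fixed values (tolerance 0.1%), against 7.03% and 7.87% of ratios across batches. The background of an uncalled library was therefore inferred from its batch partner for the "at least" limits. Intervals cover counting error only.

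Log2 scaled pileups were tested with limma 3.58.1 in R 4.3.3 (batch and genotype, trended variance, Benjamini-Hochberg adjustment over 25745 regions). Batch is shared by the replicate numbers in the labels, and WT and DC deviated together across batches (r = 0.53 over regions, which are not independent). The script was tested on simulated data. Distances are to the nearest protein-coding gene of RefSeq. Of 351 listed genes, 348 were matched. Members, gene lists and tests were chosen with earlier results of these data known. Named regions are the 15 higher and 15 lower of smallest adjusted p moving alike in both batches, the 8 strongest of each kind called in 1 genotype, the 6 strongest, listed genes past the threshold, the 3 most bound genes of a list, clusters and those near the enhancer; others are stated. Alternatives changed 1 choice at a time: scaling, fold for pileup, filters, summit distance, batch term and DE libraries. The fits with a single library left out changed more. They added the DE libraries, dropped regions without a peak in every DE library, and assumed that a lone library of a genotype varies like the others. Regions on chromosome 18 are not described singly.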

Additional observations from a re-analysis of the deposited data

How the results depend on the processing

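The number of higher regions, 671, was 0 with no replicate block (no batch term), 14709 under floor scaling and 112 with the authors' fold. It was 513 to 924 under quantile normalization, the stricter q, the mean pileup and background filters, summits within 150 bp and with the DE libraries, and 132 to 477 without 1 library. The number of lower regions, 242, was 0 with no replicate block, 28 under floor scaling, 452 under quantile normalization, 16 with the authors' fold, 155 at a −log10 q of at least 2, 375 at a mean pileup of at least 20 and 372 at a background under 5 times the floor. It was 205 with summits within 150 bp, 247 with the DE libraries and 37 to 105 without 1 library. Regions called in WT alone, 1027, were 26 at a pileup of at least 20, 43315 in batch 1 alone and 23894 in batch 2 alone. Those called in DC alone, 3974, were 207, 131187 and 16888. The enhancer ratio of batch 1, 0.184, was 0.355 under floor scaling. Of 82 named regions with a call, 6 changed sign under floor scaling, which adds 0.85 to every log2 difference and so can turn small lower calls only: Mrgprd (0.0288), B230307C23Rik (0.00819), Cr2 (0.0269), F13a1 (0.29), Cd83 (0.16) and the strongest of Gas7 (0.12). All 82 kept their sign in every other alternative in which they were tested. Without the batch term none of the 82 passed. Of the 77 tested in every fit without 1 library, 22 passed in all of them. The cause of these shifts was not tested. With 2 libraries a genotype and depth unknown, regions of few fragments are the least certain.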
